A study of Mus musculus with 12 samples.

Results

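The genes described here encode subunits of respiratory complex I, the NADH:ubiquinone oxidoreductase of the inner mitochondrial membrane. They are the 36 genes, of 16670 in the deposited expression table, whose symbol is Nduf followed by a, b, c, s or v and a number, so that assembly factors (Ndufaf genes) are not among them. The series sequenced RNA of inguinal fat, a subcutaneous white depot, from female mice of the strain C57BL/6. For each preparation, fat of 2 mice was pooled, dissociated and separated by centrifugation into a floating layer of mature adipocytes and a pellet of stromal vascular cells, which holds progenitor, vascular and immune cells. There were 4 groups of 3 libraries, 12 in all: in either fraction 3 carried the label Kdm5c+/- (heterozygous) and 3 the label Kdm5c+/+ (wild type). No treatment is named. Neither the age of the mice nor the kind of Kdm5c allele is given in the sources used here. The comparisons ask how subunit transcripts differ between the fractions, between genotype labels in either fraction, and whether the genotype difference is unlike in the fractions. Levels are in CPM, the reads of a gene scaled to a common library total over the genes listed.

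Complex I takes electrons from NADH, passes them along a flavin and a chain of iron-sulfur clusters to ubiquinone, and pumps protons out of the matrix. Its peripheral arm holds the N module, where NADH is oxidised, and the Q module, where ubiquinone is reduced. The membrane arm, split here into a proximal and a distal part, holds the pumps, which are encoded by mitochondrial DNA, and many small accessory subunits encoded in the nucleus. Core subunits are those with counterparts in bacteria, and accessory subunits surround and stabilise them. In white adipocytes the respiratory chain supplies ATP and the redox balance for lipid synthesis and breakdown. Kdm5c, on the X chromosome, is expressed from both copies in female cells, and its protein removes methyl groups from lysine 4 of histone H3.

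By position, 10 of the 36 genes belong to the N module, 6 to the Q module, 9 to the proximal and 10 to the distal membrane arm. The last, Ndufa4, carries a complex I name but is now placed in complex IV. Of the core subunits, 7 are in the set, among them Ndufv1 and Ndufs1. The mitochondrially encoded core subunits are not analysed here, as the table held 0 mitochondrially encoded genes. The 36 genes lie on 15 chromosomes, with Ndufa1 and Ndufb11 on the X chromosome. All but Ndufs5 were at 1 CPM or more in all 12 libraries, and these 35 were tested.

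The libraries held 21836878 to 29434125 reads, so that 3 reads, taken as the floor of detection for counting error only, came to 0.102 to 0.137 CPM. The complex I genes together received 25171 to 107697 reads per library. Kdm5c stood at 158 to 190.3 CPM in mature adipocyte libraries labelled Kdm5c+/- and at 174 to 180.0 CPM in those labelled Kdm5c+/+. In the stromal vascular libraries these ranges were 175 to 194 CPM and 180.1 to 188 CPM. The level over the whole gene therefore did not set the genotype labels apart, and all directions between genotypes below follow the labels. The labelled fractions carried their markers: the summed level of 8 mature adipocyte markers was 33958 to 49057 CPM in mature adipocyte and 4367 to 7957 CPM in stromal vascular libraries. That of 6 endothelial markers was 95.6 to 274 CPM against 5007 to 7000.0 CPM.

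Short sequences at the start sites of the subunit genes are shown first, as a description. Of the 36 genes, 32 matched an entry in the RefSeq promoter table (GRCm38.p6), which spans 250 bases before to 50 after each start. Ndufb9, Ndufs1 and Ndufa2 are named only. These windows were searched on both strands for the cores of NRF1 (GCATGCGC) and YY1 (AAGATGGC), for the ETS site of GABPA and related factors (CCGGAAG) and for the ESRRA site (TCAAGGTCA), all regulators known for mitochondrial genes. The YY1 core was in 7 of 32 windows (21.9%) against 3.19% of all 27025 genes, and the NRF1 core in 3 (9.38%) against 3.05%. ETS letters were in 4 (12.5%) against 9.93%, and those of ESRRA in 0 against 0.466%. At least one of the motifs was in 14 windows (43.8%) against 15.3%. The 7 YY1 matches and their surroundings follow, on the strand of the gene, with the core in capitals.
Ndufb8 (chr19:44555393-44555422, minus strand): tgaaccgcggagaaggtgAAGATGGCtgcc
Ndufa9 (chr6:126849097-126849126, minus strand): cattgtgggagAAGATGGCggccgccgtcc
Ndufs7 (chr10:80249462-80249491, plus strand): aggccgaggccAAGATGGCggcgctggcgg
Ndufa3 (chr7:3617384-3617413, plus strand): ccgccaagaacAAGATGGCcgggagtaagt
Ndufs4 (chr13:114388045-114388074, minus strand): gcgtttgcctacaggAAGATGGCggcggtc
Ndufs6 (chr13:73328433-73328462, minus strand): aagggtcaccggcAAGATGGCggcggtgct
Ndufc1 (chr3:51408915-51408944, minus strand): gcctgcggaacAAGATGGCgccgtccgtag
All 7 lay on the gene's own strand, began 22 to 38 bases after the RefSeq start, and contained the annotated start codon of the protein (GENCODE M21), the ATG within the core. A match is therefore a description of letters that also form a translation start, and whether any factor binds there was not tested. The background was all genes with a window, not only those whose start codon lies in it. The YY1 shares above are therefore not like for like. The NRF1 cores began at -8 in Ndufa8, -83 in Ndufa6 and -58 in Ndufa11, counted from the start site, and are given because 2 of these genes are taken up below for their fraction differences.
Ndufa8 (chr2:36049328-36049357, minus strand): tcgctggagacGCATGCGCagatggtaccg
Ndufa6 (chr15:82354356-82354385, minus strand): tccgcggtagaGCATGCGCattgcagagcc
Ndufa11 (chr17:56717693-56717722, plus strand): ctgcactgcgcGCATGCGCgcacgccttgt
Ndufa1, Ndufb3 and Ndufb11 held none of the letters in this window.

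Per length, transcripts of the 36 genes covered a wide range of levels. CPM was divided by the length of the main transcript in kilobases for this comparison between genes. In wild-type mature adipocytes the highest levels were those of Ndufa4 at 263 ± 3.62 CPM per kilobase, Ndufb8 at 246 ± 11.2 and Ndufb9 at 239 ± 15.5 (SD, n = 3 each). Ndufb8 and Ndufb9, accessory subunits of the distal arm, did not differ from each other beyond their spread. The lowest levels were those of Ndufs5 at 1.14 ± 0.303, Ndufb4 at 4.23 ± 0.325 and Ndufb2 at 7.37 ± 0.592 CPM per kilobase. The Ndufb2 value rests on a transcript of 4371 bases where other annotated ones are as short as 455, and per kilobase of coding length it ranked 30 of 36, with Ndufa12 in its place. In the wild-type stromal vascular libraries the order by transcript length was another one, led by Ndufa7 at 83.4 ± 5.42, Ndufb10 at 73.0 ± 6.14 and Ndufa8 at 69.2 ± 4.22 CPM per kilobase. This change of leader depended on the length used. Per kilobase of coding length Ndufa4 ranked 1 of 36 in both wild-type groups. Ndufa7, Ndufa8 and Ndufb10 then ranked 2, 4 and 8 in the stromal vascular one.

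The 2 lowest members have near copies that can take their reads. Ndufs5, an accessory subunit on the intermembrane face, received 10 to 26 reads per mature adipocyte library and 3 to 5 per stromal vascular library, at or close to the floor. Of its transcript's 50-base words, 31.1% are also found in BC002163, a near copy of it, for which the log2 difference between fractions was 1.65 ± 0.09. For Ndufb4 the shared part was 37.0%, mostly with Ndufb4c. Ndufs3 shared 39.7% of its words with Gm12251 and 2 other genes. Shared words also made up 34.1% in Ndufb6 (mostly with Smim27), 28.5% in Ndufa13 (Tssk6), 26.2% in Ndufa12 (Gm15920) and 23.4% in Ndufb9, whose exons overlap those of Gm49356 on the same strand. Levels of these 7 are therefore uncertain, and the deposited counts do not show how such reads were treated. In all, 15 of the 36 genes overlap exons of another gene, 13 of them on the other strand, and no source used here says whether the counting used the strand. The 20 tested members with no such overlap had the same direction between fractions, with a median of 1.30.

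**Figure D1:**
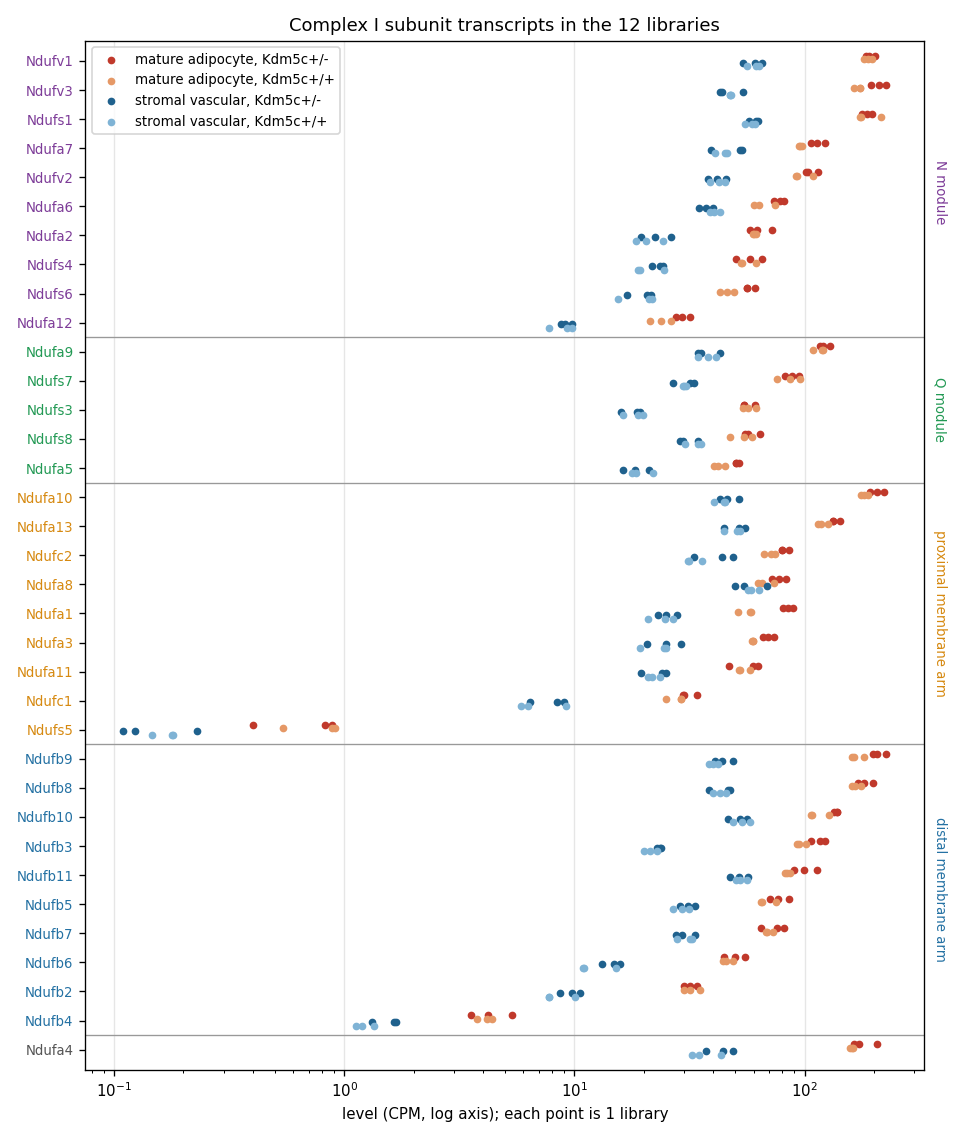
CPM of 35 subunit genes in each of the 12 libraries, on a log axis, with genes grouped by their place in complex I and coloured groups as in the key. The mature adipocyte points lie to the right of the stromal vascular ones for every gene but Ndufa8, and Ndufs5 and Ndufb4 stand far below the rest.

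All 35 subunit transcripts tested were higher in mature adipocytes than in the stromal vascular fraction. Every one passed in limma, with adjusted p of at most 0.00351, where 28.7% of all 14193 genes tested were called in this direction. For 34 of the 35 the 6 mature adipocyte libraries lay above all 6 stromal vascular ones, against 23.2% of all genes, and Ndufa8 was the exception. The median log2 difference of CPM + 1 was 1.40 over the subunits and -0.45 over all genes. The subunit sum was 3141 to 3952 CPM in mature adipocyte and 1101 to 1353 CPM in stromal vascular libraries. In bulk RNA a lower share of cells rich in a transcript and less of it per cell cannot be told apart. The size of the difference moved with the scaling. With median-of-ratios scaling, which moved the median of all genes by 0.36, the subunit median was 1.78, and by quantile normalization, with a shift of 0.53, it was 1.86. With these scalings 46.6% and 53.4% of all calls were higher in mature adipocytes, against 32.7% on CPM, and all 35 subunits stayed called higher under both.

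The 35 differences were not of one size. Ndufb3, a small distal arm subunit, had the largest. Its lowest, median and highest levels were 92.3, 104 and 123 CPM in mature adipocytes and 20.1, 22.8 and 23.8 CPM in the stromal vascular fraction. The ratio of means was 4.73 and the log2 difference 2.19 ± 0.05 (adjusted p = 6.64e-12, limma). Ndufb9, a distal arm subunit of the LYR family, followed with 2.13 ± 0.06, then Ndufa10, a proximal arm subunit that resembles nucleoside kinases, with 2.08 ± 0.06, and Ndufa4 with 2.07 ± 0.09.

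Ndufa1, taken up below, came to 1.44 ± 0.07, close to the median. At the other end stood Ndufa8, a proximal arm subunit with cysteine motifs on the intermembrane face. Its lowest, median and highest levels were 62.8, 73.0 and 83.1 CPM in mature adipocytes and 50.1, 57.5 and 68.4 CPM in the stromal vascular fraction, so that the fractions overlapped. The log2 difference was 0.30 ± 0.08 (adjusted p = 0.00351, limma) and the ratio of means 1.24. Ndufs8, a core Q module subunit with iron-sulfur clusters, came next with 0.79 ± 0.07, then the X-linked Ndufb11 with 0.80 ± 0.07 and the N module subunit Ndufa6, another LYR protein, with 0.86 ± 0.06. The spread among subunits did not depend on the scaling between libraries when 2 of them were compared within a library. Ndufa8 stood at 0.641 to 0.776 times the CPM of Ndufb3 in the 6 mature adipocyte libraries and at 2.18 to 2.90 times in the 6 stromal vascular ones. The order of this pair, chosen for its extremes, was opposite in the fractions. Under edgeR and DESeq2 the Ndufa8 difference was 0.78 and 0.70.

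The extremes came from several places in the complex. The median log2 difference was 1.41 in the N module, 1.43 in the Q module, 1.37 in the proximal arm (8 tested) and 1.48 in the distal arm. For the 7 core subunits the median was 1.49, and for the 27 accessory members tested it was 1.36. Ndufv1, the flavin-bearing subunit that binds NADH, averaged 190.6 ± 7.84 CPM in mature adipocytes and 60.2 ± 4.29 CPM among stromal vascular libraries (SD, n = 6 for both), a log2 difference of 1.65 ± 0.06. Ndufs1, the largest subunit of the N module, came to 1.64 ± 0.06, and Ndufv2, also a core subunit of that module, to 1.26 ± 0.07. In the Q module, Ndufs3 came to 1.60 ± 0.07 and Ndufs7, which carries the last cluster before ubiquinone, to 1.49 ± 0.07. The largest adjusted p among these 5 was 3.81e-09 in limma. The 3 genes with an NRF1 core, Ndufa8, Ndufa6 and Ndufa11 (1.26), all lay under the members' median, a remark made after seeing the values and not tested.

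**Figure D2:**
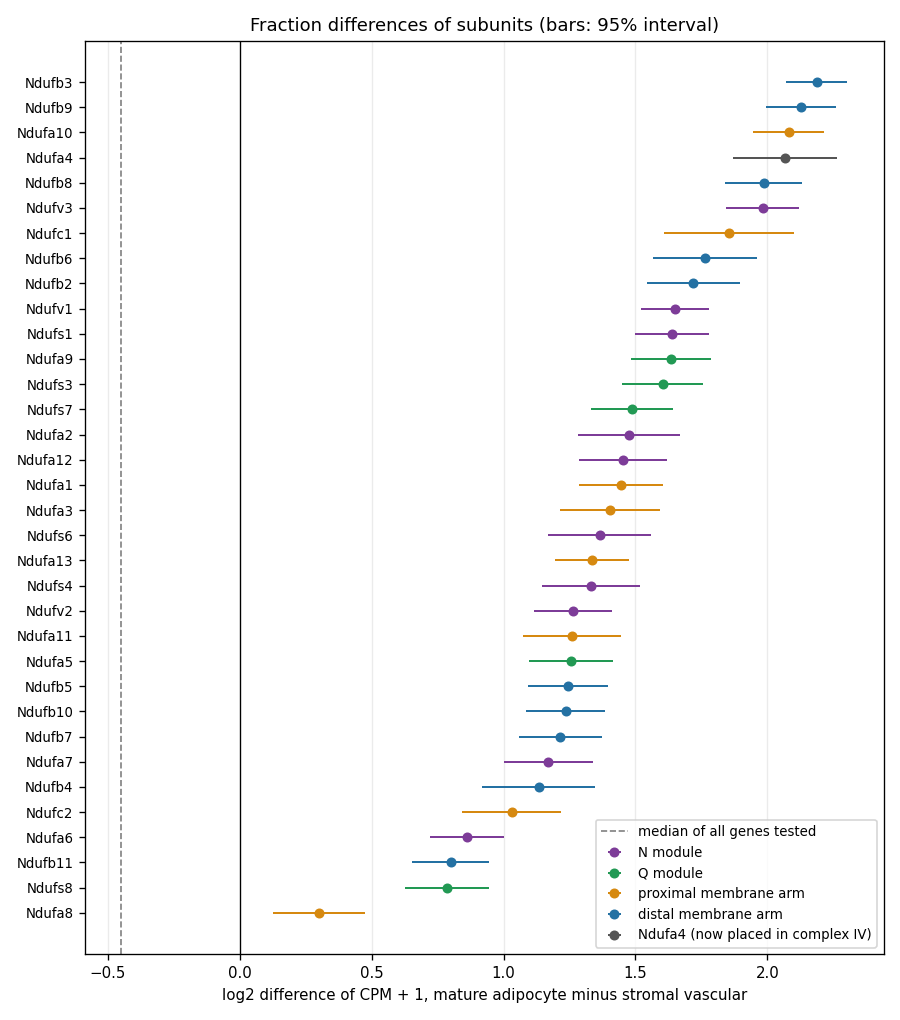
Log2 difference of CPM + 1 between mature adipocyte and stromal vascular libraries (6 each) for 34 of the 35 subunits tested, with 95% intervals from limma, coloured by place in the complex. All intervals lie above 0, from Ndufa8 at 0.30 to Ndufb3 at 2.19, and the dashed line marks the median of all genes at -0.45.

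Most other genes of the chain were higher in mature adipocytes too. Of 40 subunit genes of complexes II to V, 38 were called higher in mature adipocytes and 1 lower, with a median of 1.48. Examples are Sdhb of complex II at 1.85 ± 0.06, Cyc1, the cytochrome c1 of complex III, at 1.97 ± 0.08, Cox8a of complex IV at 2.16 ± 0.07 and Atp5b, the catalytic beta subunit of ATP synthase, at 1.98 ± 0.07. All 15 complex I assembly factors tested were called higher, with a median of 1.07, among them Ecsit (1.56 ± 0.06), Foxred1 (1.78 ± 0.07) and Tmem70 (1.68 ± 0.07). Of 15 other mitochondrial genes, 14 were called higher, led by p by Cs, the citrate synthase of the matrix, at 2.31 ± 0.08. Ndufab1, the acyl carrier protein that is a complex I subunit outside the name pattern, came to 1.93 ± 0.09. Of 13 regulators of mitochondrial biogenesis, 5 were called higher and 6 lower on the CPM scale. There 28.7% of all genes were called higher and 59.1% lower. Under median-of-ratios and quantile scaling, edgeR and DESeq2, 7 were called higher and 4 lower. In these settings 40.3% to 46.6% of all genes were called higher and 40.7% to 46.1% lower, so this split moved with the scaling. Ppargc1a, the coactivator PGC-1alpha, was higher in mature adipocytes by 2.78 ± 0.12, whereas Nrf1 (-1.23 ± 0.07) and Gabpb1 (-1.96 ± 0.09) were higher in the stromal vascular fraction, as they were under median-of-ratios and quantile scaling, edgeR and DESeq2.

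Within mature adipocytes no subunit passed between the genotype labels, yet 32 of 35 had a positive difference, against 43.1% of all genes. In limma 0 of 35 subunits were called, where 0.0% of 11913 genes were. The median difference, labelled Kdm5c+/- minus Kdm5c+/+, was 0.18 on the log2 scale over the subunits and -0.03 over all genes. At an unadjusted p under 0.05 stood 15 subunits, all with positive differences, against 5.57% of all genes, and 0 with negative ones, against 9.01%. Groups did not overlap for 17 subunits, all higher in the libraries labelled Kdm5c+/-, against 9.44% of all genes in this direction, and for 0 lower, against 12.6%. The subunit sum was 3952, 3516 and 3555 CPM in libraries 1 to 3 labelled Kdm5c+/- and 3422, 3141 and 3163 CPM in those labelled Kdm5c+/+. The 2 sets did not overlap, but the lowest of the first lay close to the highest of the second.

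Ndufa1 had the largest of these differences. It encodes a short subunit of the proximal membrane arm that is needed for assembly of the complex, and lies at chrX:37187588-37191163 on the minus strand (GRCm38, gene ENSMUSG00000016427.7), with no exon overlap and 0% of shared 50-base words. In mature adipocyte libraries labelled Kdm5c+/- it stood at 88.9, 84.4 and 80.2 CPM, and in those labelled Kdm5c+/+ at 58.0, 51.3 and 58.6 CPM. The groups were far apart, and each Kdm5c+/- library lay above all the Kdm5c+/+ ones. The means were 84.5 ± 4.39 and 55.9 ± 4.04 CPM (SD, n = 3 each), a ratio of 1.51 and a log2 difference of 0.59 ± 0.08 (95% interval 0.39 to 0.79). In limma its unadjusted p was 0.000215 and its adjusted p 0.273, and in edgeR the adjusted p was 0.273. DESeq2 on the recovered reads called it, at 0.63 with an adjusted p of 0.000203. In the stromal vascular fraction the levels were 27.9, 24.9 and 23.1 CPM against 20.8, 26.8 and 24.7 CPM, which overlapped. There the log2 difference was 0.07 ± 0.12 (95% interval -0.20 to 0.35, adjusted p = 0.901 in limma).

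The Ndufa1 difference can also be given relative to the other subunits. It made up 2.25%, 2.40% and 2.25% of all subunit CPM in mature adipocyte libraries labelled Kdm5c+/-, and 1.69%, 1.63% and 1.85% in those labelled Kdm5c+/+. In the 6 stromal vascular libraries its share was 1.85% to 2.23%, below the first set and, but for its lowest value, above the second. Within a library Ndufa1 came to 0.453 times the CPM of the core subunit Ndufs1 in all 3 Kdm5c+/- adipocyte libraries, and to 0.270, 0.295 and 0.332 times in the Kdm5c+/+ ones. Against Ndufb11, the other X-linked member, the ratio was 0.785 to 0.893 in the former and 0.614 to 0.714 in the latter. Such ratios do not depend on the scaling of a library, and no test was made of them. Ndufa1 had the largest difference between the labels, against a subunit median of 0.18, 0.25 for Ndufb11 and -0.01 for Ndufs1. Its share and both ratios were therefore bound to be higher on average in the Kdm5c+/- adipocyte libraries. They add no support.

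Among N module genes, Ndufs6, a zinc-binding subunit, stood at 61.1, 56.2 and 56.1 CPM in mature adipocyte libraries labelled Kdm5c+/- and at 49.1, 42.9 and 45.9 CPM in those labelled Kdm5c+/+. The groups were apart, with a log2 difference of 0.32 ± 0.08 (unadjusted p = 0.00527, adjusted p = 0.273, limma). For Ndufv3, an accessory subunit beside the flavin site, the values were 226, 194 and 210.2 CPM against 174, 164 and 174 CPM, and the difference 0.30 ± 0.09. Ndufv3 is named for its call in DESeq2 (0.34, adjusted p = 0.0488), after its values were seen. It and Ndufa1 were the 2 subunits called there, where 1.05% of all genes were called higher, and edgeR called 0, as it did for 0.0% of all genes. In edgeR 17 subunits had a positive difference at an unadjusted p under 0.05, against 8.24% of all genes, and all 35 differences were positive, against 51.0%.

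In the Q module, Ndufa5 stood at 51.9, 50.3 and 50.4 CPM against 44.9, 40.5 and 42.0 CPM, and its difference was 0.26 ± 0.07 (adjusted p = 0.285, limma). In the distal arm, Ndufb9 stood at 226, 198 and 206 CPM against 181, 159.9 and 164 CPM, a difference of 0.32 ± 0.09 (adjusted p = 0.286, limma). In both, each Kdm5c+/- library lay above all Kdm5c+/+ ones. The X-linked Ndufb11, from the same arm, came to 0.25 ± 0.10 (adjusted p = 0.328), within the range of autosomal members. The 3 negative differences were Ndufs3 at -0.02 ± 0.08, Ndufb2 at -0.01 ± 0.09 and Ndufs1 at -0.01 ± 0.11. They turned to between 0.02 and 0.04 under median-of-ratios or quantile scaling, edgeR and DESeq2, so that no direction can be given for them.

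Core and accessory members are given apart, with no test between them. For the 7 core subunits the median was 0.04, with 1 of 7 at an unadjusted p under 0.05. For 27 accessory members it was 0.21, with 14 of 27. The summed CPM of core subunits was 0.384 to 0.394 times that of accessory ones in mature adipocyte libraries labelled Kdm5c+/-, and 0.413 to 0.433 times in those labelled Kdm5c+/+, without overlap. In stromal vascular libraries these ratios were 0.404 to 0.416 and 0.408 to 0.442, with overlap. Core transcripts have long coding sequences and accessory ones mostly short ones, and the part of transcript length in this split was not tested. The median difference was 0.18 in the N module, 0.10 in the Q module, 0.20 in the proximal and 0.16 in the distal arm.

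**Figure D3:**
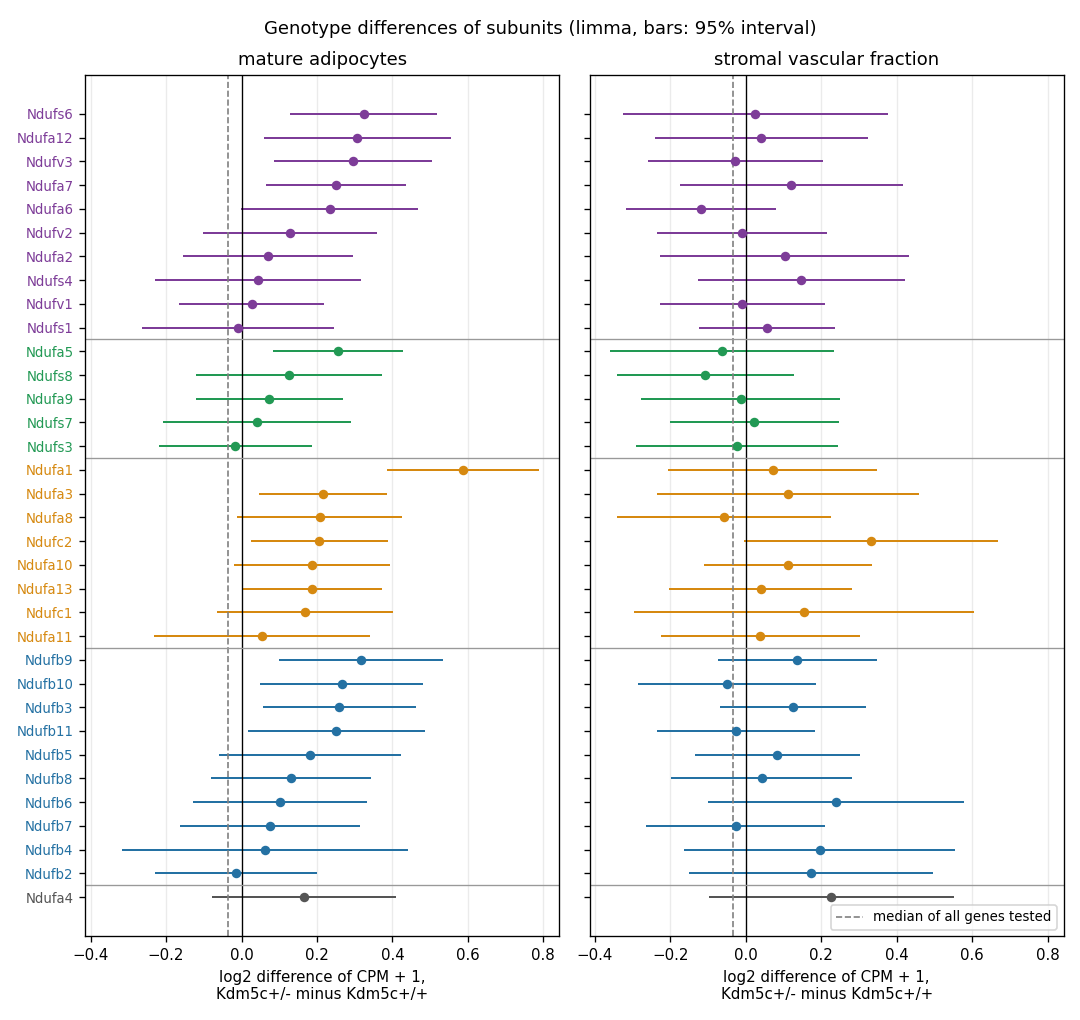
Log2 difference of CPM + 1, labelled Kdm5c+/- minus Kdm5c+/+, for 34 of the 35 subunits in mature adipocytes (left) and in the stromal vascular fraction (right), 3 libraries against 3 in each, with 95% intervals from limma and colours by place in the complex. In mature adipocytes 31 of 34 points lie above 0 with Ndufa1 farthest at 0.59, and in the stromal vascular fraction 22 of 34 do, with every interval reaching 0.

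Other chain genes also had mostly positive differences in mature adipocytes, and those of the assembly factors lay near 0. For 39 genes of complexes II to V tested, 37 differences were positive, 16 had an unadjusted p under 0.05 and 0 were called by limma or edgeR and 7 by DESeq2, with a median of 0.19. The shares of all genes were 43.1% positive, 5.57% at that unadjusted p with a positive difference and 1.05% called higher by DESeq2. The median was 0.28 in complex IV, 0.27 in complex III, 0.10 in complex V and 0.06 in complex II. Examples are Cox6a1 at 0.48 ± 0.10, Cox5b at 0.46 ± 0.09 and Uqcrb at 0.48 ± 0.11, each with an adjusted p of 0.273 in limma. For 15 assembly factors the median was 0.02 and 0 had an unadjusted p under 0.05, the smallest p being that of Acad9 at -0.14 ± 0.08. Their summed level was 0.107 to 0.113 times that of the subunits in libraries labelled Kdm5c+/- and 0.124 to 0.131 times in those labelled Kdm5c+/+, without overlap. For 13 biogenesis regulators the median was -0.03 on CPM and 0.01 to 0.02 under the other scalings, with Ppargc1a at -0.40 ± 0.17 (adjusted p = 0.342, limma).

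Markers of cell types moved with these differences. The summed level of 8 mature adipocyte markers was 38983 to 49057 CPM in mature adipocyte libraries labelled Kdm5c+/- and 33958 to 35080 CPM in those labelled Kdm5c+/+. Of these, 7 of 8 had positive differences, against 43.1% of all genes. They were uneven, from Plin1 at -0.005 ± 0.12, Pparg at 0.01 ± 0.16 and Adipoq at 0.12 ± 0.13 to Cidec at 0.58 ± 0.19. All 6 endothelial markers had negative ones, with sums of 95.6 to 172 CPM against 218 to 274 CPM, as did all 6 progenitor and fibroblast markers, with 57.8 to 62.9 CPM against 71.5 to 138 CPM. Pericyte and smooth muscle markers were negative for 6 of 6 (median -0.94, 5 of 6 at an unadjusted p under 0.05), with 48.6 to 193 CPM against 174 to 419 CPM. So were 5 of 5 macrophage markers, with 22.4 to 25.5 CPM against 23.0 to 66.4 CPM, and 3 of 3 Schwann cell markers tested, with 11.9 to 17.1 CPM against 21.7 to 32.9 CPM. Sums of 6 brown and beige adipocyte markers, genes of cells rich in mitochondria, were 59.1 to 97.1 CPM against 34.1 to 79.4 CPM. These sums overlapped, and Ucp1, the defining marker, was at 0.116 to 3.35 CPM in all 6 libraries. Of the 4 tested, 2 had positive differences, Cox8b at 0.78 ± 0.26 (unadjusted p = 0.0212, limma) and Cidea at 0.72 ± 0.49. The 2 negative ones were Dio2 at -0.15 ± 0.27 and Cox7a1 at -0.07 ± 0.20, and 0 of the 4 were called. Skeletal muscle markers summed to 26.3 to 48.6 CPM against 31.3 to 89.9 CPM, with Ckm at 0.306 CPM at most. Rn45s was at 4813 to 7692 CPM in the libraries labelled Kdm5c+/- and at 3794 to 4386 CPM in those labelled Kdm5c+/+, without overlap. The part of any of these in the subunit differences was not tested.

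Single libraries carried much of the count. In the Kdm5c+/- library 1 of mature adipocytes all 35 subunits lay above the group mean, where 49.6% of all genes did. Without it, 27 differences were positive and 5 had an unadjusted p under 0.05, and without the Kdm5c+/+ library 2 or 3 the latter count was 7 or 6. The Ndufa1 difference stayed between 0.53 and 0.62 when any 1 of the 6 libraries was left out, with adjusted p of 0.0580 to 0.612 in limma.

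**Figure D4:**
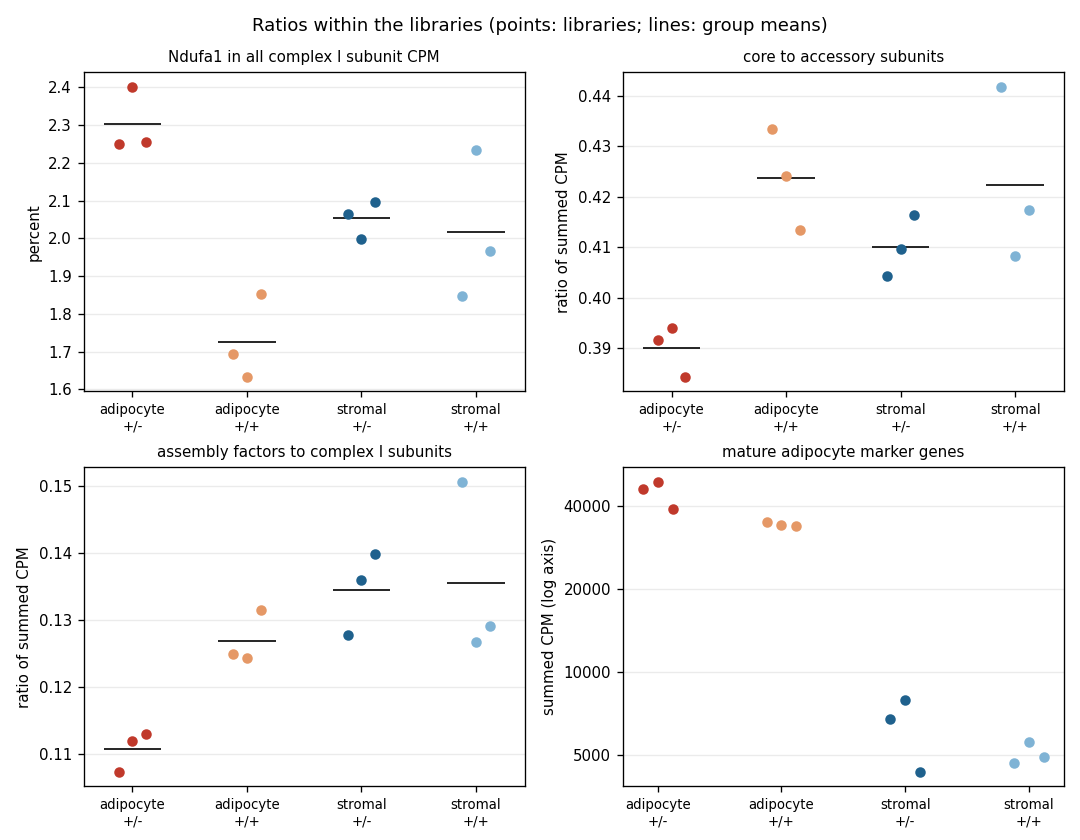
Per library (points, with group means as lines except on the log axis): the percent of subunit CPM taken by Ndufa1, the ratio of core to accessory subunits, the ratio of complex I assembly factors to subunits, and the summed CPM of mature adipocyte markers. The 3 mature adipocyte libraries labelled Kdm5c+/- lie apart from the 3 labelled Kdm5c+/+ in all 4 panels, and the genotype labels overlap in the stromal vascular fraction. The Ndufa1 share and the ratios restate differences given in the text and add no support to them.

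In the stromal vascular fraction the subunits gave no genotype difference that passed. In limma 0 of 35 were called, where 0.00725% of 13792 genes were called higher, and 0 had an unadjusted p under 0.05, where 2.07% of all genes did in the positive direction. Differences were positive for 23 of 35, with a median of 0.04 (all genes -0.03). Groups did not overlap for 1 subunit, Ndufb3, against 3.74% of all genes in this direction. Ndufb3 stood at 23.8, 23.5 and 22.9 CPM in libraries labelled Kdm5c+/- and at 20.1, 22.8 and 21.3 CPM in those labelled Kdm5c+/+, a difference of 0.13 ± 0.08 (95% interval -0.06 to 0.32).

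The smallest p was that of Ndufc2, a proximal arm subunit. It stood at 43.9, 48.7 and 33.1 CPM against 31.1, 31.4 and 35.7 CPM, with 2 of 3 Kdm5c+/- libraries above and 1 within the Kdm5c+/+ range. The difference was 0.33 ± 0.14 (adjusted p = 0.644, limma). Ndufb6 (0.24 ± 0.14) and Ndufa4 (0.23 ± 0.14) followed, and the most negative were Ndufa6 (-0.12 ± 0.08) and Ndufs8 (-0.11 ± 0.10). Ndufa5 and Ndufb10, both among the higher values in mature adipocytes, came to -0.06 ± 0.13 and -0.05 ± 0.10 here. In Kdm5c+/- libraries 1, 2 and 3, 34, 22 and 0 of 35 subunits lay above the group mean, and the mature adipocyte markers summed to 6778, 7957 and 4367 CPM. In Kdm5c+/+ libraries 1, 2 and 3 these were 4, 18 and 30 subunits and 4685, 5579 and 4945 CPM. The order of the marker sums within a group was not that of the subunits. Between the labels, all 8 mature adipocyte markers had positive differences, against 40.6% of all genes. Their median was 0.72, and 1 of 8 had an unadjusted p under 0.05 in limma. Rn45s, the precursor of ribosomal RNA, stood at 18620, 19532 and 8985 CPM in the libraries labelled Kdm5c+/- and at 6554 to 6733 CPM in those labelled Kdm5c+/+. The part of adipocyte or ribosomal RNA in these values was not tested.

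Whether the genotype differences were unlike in the fractions was tested directly, in a fit to all 12 libraries. No subunit passed, where 0.0% of 14193 genes did, and 4 of 35 had an unadjusted p under 0.05, all with the larger difference in mature adipocytes, against 4.24% of all genes. These were Ndufa1 at 0.52 ± 0.15 (95% interval 0.19 to 0.84, unadjusted p = 0.00456, adjusted p = 0.50 in limma), Ndufa6 at 0.35 ± 0.13, Ndufv3 at 0.32 ± 0.13 and Ndufb10 at 0.32 ± 0.14. The most negative values were those of Ndufb2 at -0.19 ± 0.16, Ndufb6 at -0.14 ± 0.18, Ndufb4 at -0.13 ± 0.20 and Ndufc2 at -0.13 ± 0.17. The median over the 35 was 0.10.

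Within groups the subunits varied together. Over the 12 libraries, the deviations of 35 subunits from their group means gave 595 pairwise correlations with a median r of 0.651, and 99.5% were above 0. The libraries share depth and cell make-up, so this is a description and no test. The lowest and highest pairs had r of -0.140 and 0.979. Libraries with most subunits above their group mean were, beside the Kdm5c+/- libraries 1 of both fractions, the Kdm5c+/+ library 1 of mature adipocytes (30 of 35) and the Kdm5c+/+ library 3 of the stromal vascular fraction (30 of 35). For these 2 libraries, 41.9% and 46.9% of all genes lay above the group mean.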

How the data were processed

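RNA was measured in 12 libraries of mature adipocytes and stromal vascular cells, each from tissue of 2 pooled mice. Libraries were strand-specific (Universal plus mRNA-Seq kit), per the labels' protocols. STAR 2.7.2a, edgeR 3.26.8 and GRCm38 were used, per the submitters' processing notes, and no source used here names the counting tool or annotation. The values deposited by the authors are CPM. In each library 100% were whole multiples of 1 step within 0.05 read, so reads were recovered. Groups came from sample titles. P-values measure the spread between these pools only.

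The 36 members and all lists were chosen with earlier results of these data known. Genes reaching 1 CPM in 3 or more fitted libraries entered limma 3.58.1 (R 4.3.3; lmFit, then robust eBayes with a trend) on log2(CPM + 1), two-sided, with Benjamini-Hochberg adjustment over all genes and a threshold of 0.05. On this scale fold changes of low genes are understated. Genotypes were compared within a fraction, and fractions and the difference of differences in all 12 libraries. Named were Ndufa1, the 4 members per direction with the smallest p (for the fractions, the 4 largest and 4 smallest differences), the 3 highest and lowest per length, the 7 core subunits and up to 3 genes per other list. Of the core members, 1 is counted throughout but not reported singly here. Alternatives were a pseudocount of 0.25, no filter, a filter on a mean of 5 CPM, scaling by median-of-ratios or quantiles, edgeR 4.0.16 and DESeq2 1.42.0 on recovered reads, a replicate block, all 12 libraries in one fit, and leaving out each library. The fits were tested on simulated data. Across genes, same-numbered fractions of one genotype deviated together (r of 0.169 to 0.278 over 6 pairs), so they are taken as pairs, from the data. The main fits held no term for these pairs, which entered only in the replicate block. Positions, lengths and shared 50-base words came from GENCODE M21, and sequences from RefSeq.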

Additional observations from a re-analysis of the deposited data

How the results depend on the processing

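Fits with DESeq2 called 2 subunits between genotype labels in mature adipocytes, and the other alternatives, leaving out each library included, called 0. Between fractions the subunit median was 1.95 under edgeR, 1.87 under DESeq2, 1.78 on median-of-ratios scaled values and 1.86 on quantile-normalized ones. Over all genes, DESeq2 called 250 in mature adipocytes, 53 in the stromal vascular fraction and 67 for the difference of differences, where limma called 0, 1 and 0. All 12 libraries in one fit gave 1 and 4 in the first 2, and without the Kdm5c+/- mature adipocyte library 3 it was 3 in the first and 7 in the last. The single stromal vascular call was lost without any 1 of the 6 libraries. In mature adipocytes Ndufs3, Ndufb2 and Ndufs1 turned positive with DESeq2 (0.024, 0.024 and 0.025), edgeR (0.026, 0.026 and 0.027), median-of-ratios (0.028, 0.030 and 0.036) and quantile scaling (0.021, 0.030 and 0.028). When 1 library was left out, the range was -0.069 to 0.032 for Ndufs3, -0.066 to 0.045 for Ndufb2 and -0.063 to 0.089 for Ndufs1. In the stromal vascular fraction it was -0.027 to 0.15 for Ndufa1, -0.11 to 0.025 for Ndufb10 and -0.15 to 0.027 for Ndufa5. For Ndufb4 the difference of differences was 0.03 with quantile normalization, against -0.13. The causes were not tested.

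With a replicate block of the pool between the fractions, and of the number between genotype labels, 0 subunits changed call. With that block 35 subunits were called between fractions, 0 between genotypes in either fraction and 0 for the difference of differences. The numbers do not pair the genotypes, whose same-numbered libraries correlated at -0.28 to 0.34. The single call over all genes in the stromal vascular fraction was lost (0).

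Depth limits Ndufs5 (3 to 5 reads) and Ndufb4 (25 to 46) most in the stromal vascular libraries, then Ndufc1 (130 to 253), Ndufb2 (172 to 288) and Ndufa12 (174 to 255). With 3 pools per group, differences of the size seen in most subunits lay close to the spread between pools.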

Other observations

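The genes named here were chosen after their values were seen. Of the subunit genes of complexes II to V, 1 was called higher in the stromal vascular fraction, against the other members. It was Cox7a2l, which encodes an assembly factor of respiratory supercomplexes, at -0.64 ± 0.06 in limma and at -0.29 to -0.17 under the other scalings, edgeR and DESeq2. Tomm20, a receptor for protein import in the outer membrane, was called there on the CPM scale (-0.31 ± 0.05) but came to 0.07 to 0.15 under those 4, so that no direction can be given for it. Atp5g2, for one isoform of the c subunit of ATP synthase, came to 0.09 ± 0.10 (adjusted p = 0.380, limma) and to 0.28 to 1.10 under them. Tfam, the packaging factor of mitochondrial DNA, came to -0.06 ± 0.06 and to 0.32 to 0.41. The scaling therefore moved the calls of Tomm20, Atp5g2 and Tfam, whereas Cox7a2l stayed called lower under each setting. Between fractions the complex I subunits kept their calls too.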
